A study of Mus musculus with 4 samples.

Results

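Foxp3, the transcription factor that defines regulatory T-cells (Tregs), works in complexes with other proteins, and the genes described here encode 8 of them. They are Runx1, Runx2, Runx3 and their shared subunit Cbfb, the zinc-finger factors Bcl11b and Yy1, and the ETS factors Ets1 and Elf1. Members were all probe sets that the platform annotation assigns to one of these genes alone. These were 7 of the 41345 probe sets on the arrays, 1 each for 7 of the 8 listed genes, among 22180 genes measured. Runx2 was not analysed here on the arrays, and a probe set that the annotation shares between Taok1 and Ets1 was left out. The question was whether RNA of these factors differed between Tregs that had divided and Tregs that had not.

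Proliferating Tregs (2 arrays) were compared with resting Tregs (2 arrays), both from cultures of NOD mouse Tregs with G-BMDCs, bone-marrow-derived dendritic cells raised in GM-CSF, for 5 days. NOD mice develop autoimmune diabetes. Dye dilution separated the groups after culture, so that resting Tregs had shared the culture with the dividing cells and were no untreated control, and the dye is CFSE in the labels and Cell Trace Violet in the methods. No age or sex is given in the labels, and whether the 2 samples of a group were separate cultures is stated nowhere in the sources used here. The p-values therefore cover the spread between the samples at hand alone, and this spread may be technical.

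Runx proteins bind DNA through the Runt domain and each pairs with Cbfb, which binds no DNA itself but strengthens binding and protects its partner from degradation. In Tregs, Runx1 binds Foxp3 directly, the pair holds the Il2 gene silent, and Runx with Cbfb on the Foxp3 locus helps keep Foxp3 expressed. Ets1 binds an enhancer in the Foxp3 gene, Bcl11b keeps T-cells committed to their lineage, and Yy1, unlike the others, has been described as a factor that binds Foxp3 and restrains it.

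The Runx genes share a sequence at one of their start sites, which is shown because it holds the core letters known for Runx factors. Binding was not measured here. RefSeq promoter windows of GRCm38.p6, each 300 bases from 250 before to 50 after an annotated start, were found for 7 of the 8 genes, as 10 windows. The Runx core was searched as TGTGGT, or ACCACA on the other strand, and in no other form. These letters lay in 3 of the 10 windows, namely the distal ones of Runx1 and Runx3 and the one of Runx2. They lay in 16.8% of all 32851 windows. In each of the 3 Runx windows 2 cores stood in tandem with a spacer of 2 bases, and Runx2 held a further match at -80. The stretches run 5′ to 3′ along the strand of the gene, with the Runx cores in capitals.
Runx1, chr16:92826026-92826053, minus strand: ataaacaACCACAgaACCACAagttggg
Runx2, chr17:44814584-44814611, minus strand: acaaacaACCACAgaACCACAagtgcgg
Runx3, chr4:135120504-135120531, plus strand: tccctcaACCACAgaACCACAaggccag

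The longest run that the 3 windows shared was 18 bases, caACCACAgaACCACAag. Its first core began at position 29 after the start in Runx1, at 24 after it in Runx2 and at -134 before it in Runx3. The tandem, ACCACANNACCACA on either strand, was chosen after the windows had been seen. It was present in 7 of 32851 windows (0.0213%), of which 3 were the Runx windows and 1 overlapped the Runx3 window from the other strand. Such a match is a description of letters and not of binding.

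The windows of Cbfb, of the proximal start of Runx3 and of Yy1 held none of the letters searched. The proximal window of Runx1 held 1 match to the ETS letters CCGGAA, which 14.9% of all windows contain on either strand. The Yy1 letters AAGATGG, present in 6.34% of windows on either strand, occurred once in the Bcl11b window and once in the downstream of the 2 Elf1 windows, and the 2 windows of Foxp3 held none of the 3 motifs. Absence of a match says only that these letters are not in the window. The 250 bases before the proximal Runx1 start, with the ETS letters in capitals, the 250 bases before the distal Runx3 start, with the tandem in capitals, and the 250 bases before the Cbfb start are given so that the start regions of the 3 measured genes of the Runx complex can be read beside their values.
Runx1 proximal, chr16:92697330-92697579, minus strand: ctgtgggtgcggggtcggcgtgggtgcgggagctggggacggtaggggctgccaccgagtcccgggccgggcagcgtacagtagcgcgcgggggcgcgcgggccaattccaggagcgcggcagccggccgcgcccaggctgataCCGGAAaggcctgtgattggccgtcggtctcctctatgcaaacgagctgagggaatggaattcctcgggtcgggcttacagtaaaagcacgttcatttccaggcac
Runx3 distal, chr4:135120395-135120644, plus strand: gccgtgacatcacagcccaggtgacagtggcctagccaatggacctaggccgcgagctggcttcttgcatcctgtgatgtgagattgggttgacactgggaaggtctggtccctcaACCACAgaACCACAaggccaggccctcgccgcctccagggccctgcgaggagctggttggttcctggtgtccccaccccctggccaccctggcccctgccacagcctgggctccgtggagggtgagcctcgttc
Cbfb, chr8:105170424-105170673, plus strand: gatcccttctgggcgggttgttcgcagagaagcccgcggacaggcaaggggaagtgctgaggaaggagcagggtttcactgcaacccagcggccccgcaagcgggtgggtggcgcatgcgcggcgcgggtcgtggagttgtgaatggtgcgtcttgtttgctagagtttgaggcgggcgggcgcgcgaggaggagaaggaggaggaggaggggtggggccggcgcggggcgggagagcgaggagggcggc

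**Figure D1:**
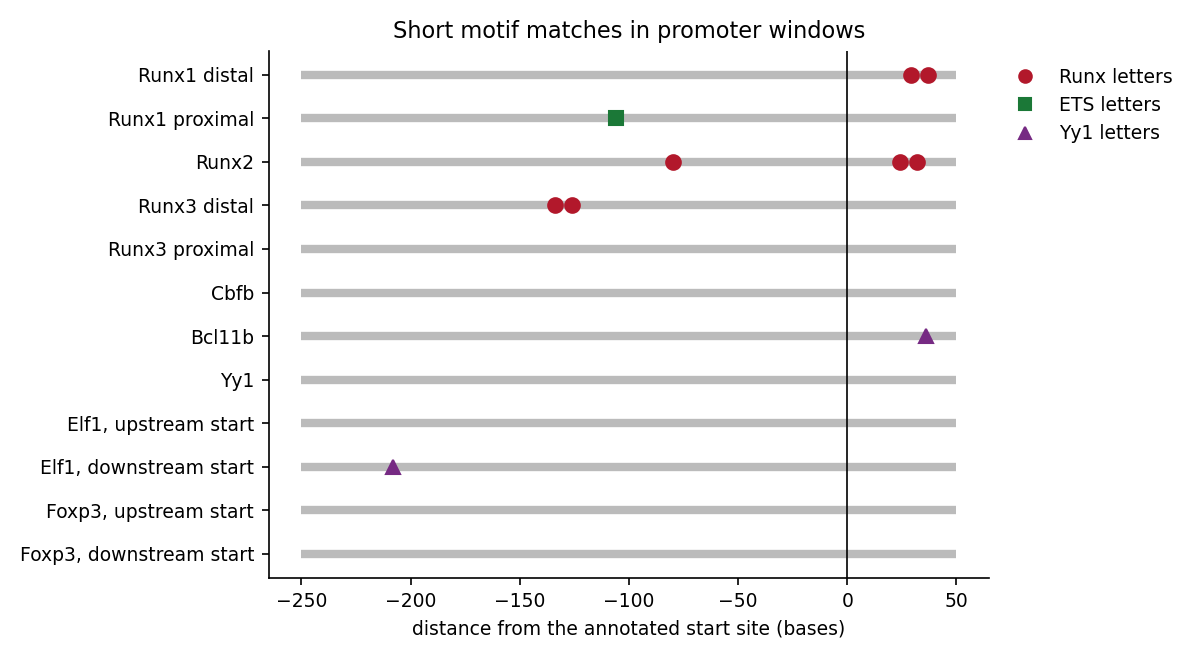
Positions of the Runx, ETS and Yy1 letters, in bases from the annotated start, in the 10 RefSeq windows of the listed genes and the 2 windows of Foxp3. Runx letters stand in tandem in 3 windows, those of Runx2 and of the distal starts of Runx1 and Runx3.

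Arrays of a group resembled each other, with Pearson's r across genes, which are not independent replicates, of 0.981 between the proliferating arrays and 0.980 between the resting ones, against 0.797 to 0.819 between groups. Foxp3 was at 10.15 in each proliferating array and at 8.30 and 8.26 in the resting arrays, on the deposited log2 scale. All 5 Treg markers and 8 of 9 T-cell markers were higher in proliferating Tregs, as was Mki67, a marker of dividing cells (log2 fold change 2.30), although with arrays centred on Cd3d, Cd3e and Cd3g 2 Treg markers were higher and 1 lower, with Foxp3 at -0.094 and Ctla4 at -0.53, and Mki67 was at 0.33 and did not pass. All 8 B-cell markers and all 10 neutrophil markers were lower. The log2 of the summed B-cell markers was 9.14 to 9.22 in proliferating and 11.8 to 11.9 in resting arrays. That of the neutrophil markers was 9.52 to 9.58 in proliferating and 13.5 to 13.6 in resting arrays. The summed 17 dendritic and myeloid markers were at 13.2 to 13.3 in proliferating and 12.1 to 12.2 in resting arrays, a sum that bright genes dominate. Of these 17, 10 were higher, 3 lower and 4 did not pass. No detection call was used, so no marker was read as absent. The part of other cells in the results that follow was not tested, and in bulk RNA fewer cells of a type and less RNA per cell cannot be told apart.

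Of the 7 measured Foxp3 partner factors, 5 were higher in proliferating Tregs on the deposited scale (Cbfb, Yy1, Elf1, Runx1 and Bcl11b). The study had named Cbfb, Yy1, Runx1 and Bcl11b as higher on these samples, so these are no independent evidence of direction. After quantile normalization 2 were higher (Cbfb and Runx1) and 0 lower. All 7 fold changes were negative with arrays centred on housekeeping genes or on Cd3d, Cd3e and Cd3g. On the deposited scale none was lower, and Ets1 and Runx3 did not pass the test, which was limma's moderated test at a Benjamini-Hochberg adjusted p under 0.05 over all 22180 genes. Among all genes 60.1% passed, 25.6% as higher and 34.5% as lower. The median log2 fold change, proliferating minus resting, was 0.84 over the members and -0.17 over all genes, and after quantile normalization it was -0.20 over the members and -0.065 over all genes. Both proliferating arrays lay above both resting arrays for all 7, as they did for 33.0% of all genes, while 81.2% of genes separated in one direction or the other. With 2 arrays a group an exact two-sided permutation test of one gene cannot go below 0.333, and none is given.

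**Figure D2:**
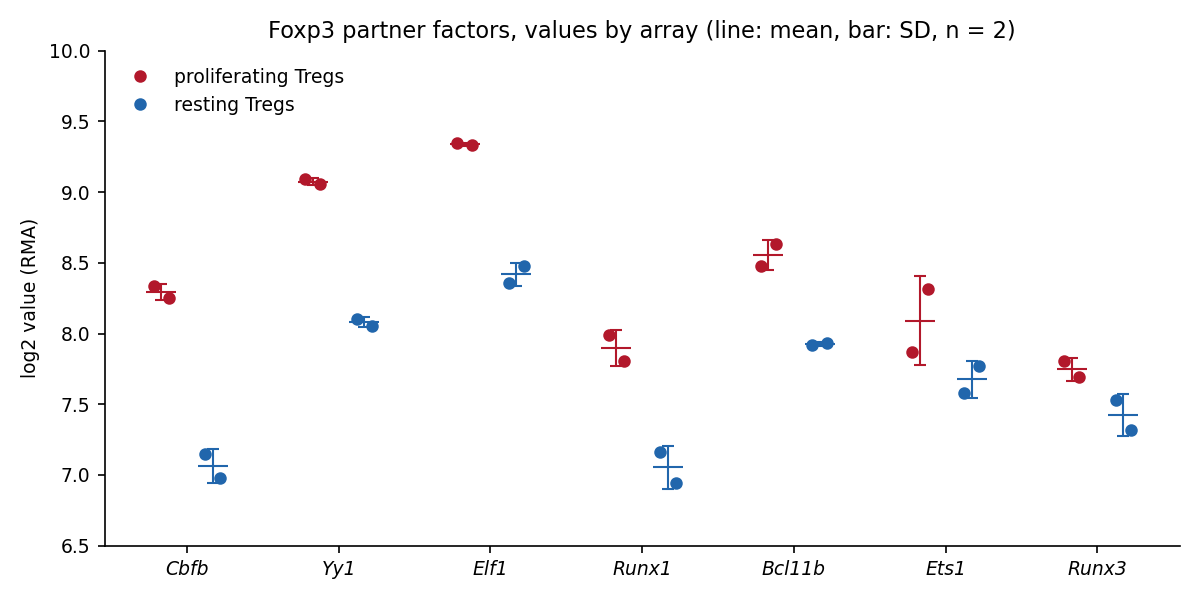
Deposited log2 expression of the 7 measured members in each array, with proliferating Tregs left of resting Tregs and lines at the group means. The groups do not overlap for any member on the deposited scale, and the 2 proliferating arrays of Ets1 (7.87 and 8.31) lie farthest apart.

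Runx1 (probe set 17332236), the Runx factor first found to join Foxp3, was at 7.99 and 7.81 in proliferating Tregs and at 7.16 and 6.94 in resting Tregs (log2 level). The gap between groups was several times that between arrays of a group. Its mean of 7.90 ± 0.13 in proliferating against 7.05 ± 0.15 in resting Tregs (SD, n = 2 each) gave a log2 fold change of 0.84 ± 0.14 (SE), or 1.79-fold with a 95% interval of 1.42 to 2.27 (adjusted p = 0.00205), which became -0.44 with housekeeping centring and -1.13 with Cd3 centring. Runx1 did not pass the methods' t-test after Benjamini-Hochberg adjustment (adjusted p = 0.0792). Its log2 fold change exceeded that of 84.7% of all genes, a share that was 87.3% for Yy1 and 86.1% for Elf1. Among genes whose mean lay within 0.5 log2 units of its own, Runx1 exceeded 67.3%.

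Cbfb (17504649), the subunit without which no Runx protein binds DNA firmly, was at 8.33 and 8.25 in proliferating Tregs and at 7.15 and 6.98 in resting Tregs. This was the widest separation among the 7 members on the deposited scale. Cbfb averaged 8.29 ± 0.06 in proliferating and 7.06 ± 0.12 in resting Tregs, a log2 fold change of 1.23 ± 0.13 (SE) or 2.34-fold (95% interval 1.89 to 2.91, adjusted p = 2.41e-04), which was near 0 at -0.050 with housekeeping centring and -0.74 with Cd3 centring. Its log2 fold change exceeded that of 90.5% of all genes.

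Runx3 (17419840), which in CD8 T-cells silences Cd4 and in effector cells promotes cytotoxic genes, was at 7.80 and 7.69 in proliferating Tregs and at 7.53 and 7.32 in resting Tregs. The groups did not overlap, yet the lower proliferating array lay only slightly above the higher resting one. The log2 fold change of 0.32 ± 0.14 (SE), or 1.25-fold with a 95% interval of 1.00 to 1.57, did not pass the test (adjusted p = 0.0760), and its sign turned under quantile normalization (-0.20), housekeeping centring (-0.96) and Cd3 centring (-1.65). It passed with a trended and robust prior (adjusted p = 0.0303), with dim genes left out (0.0342) and with centring on the median (log2 fold change 0.56, adjusted p = 0.0113).

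Differences taken within an array, which centring of arrays leaves as they are, set the members of the Runx complex against each other. Runx1 minus Cbfb was -0.35 and -0.44 in proliferating Tregs and 0.016 and -0.034 in resting Tregs, a change of -0.39. Runx3 minus Cbfb was -0.53 and -0.56 in proliferating Tregs and 0.38 and 0.34 in resting Tregs, a change of -0.91. Both differences were lower in every proliferating array, so that the signal of Cbfb gained on those of Runx1 and Runx3. Runx1 minus Runx3 was 0.18 and 0.12 in proliferating Tregs and -0.37 in each resting array, a change of 0.52. After quantile normalization the change was -0.28 for Runx1 minus Cbfb, -0.95 for Runx3 minus Cbfb and 0.67 for Runx1 minus Runx3, again with no overlap between groups. A value of such a difference depends on the probes of both sets, and no level of one gene is read from it against another.

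Elf1 (17302238), an ETS factor of lymphocytes that binds the Il2ra enhancer, was at 9.35 and 9.33 in proliferating Tregs and at 8.36 and 8.47 in resting Tregs. Arrays of a group lay close together and the groups far apart. The log2 fold change was 0.92 ± 0.13 (SE), or 1.89-fold with a 95% interval of 1.54 to 2.33 (adjusted p = 0.000792), and turned to -0.21 under quantile normalization, -0.36 with housekeeping centring and -1.05 with Cd3 centring.

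Ets1 (17515819), needed for full Foxp3 expression in Tregs, was at 7.87 and 8.31 in proliferating Tregs and at 7.58 and 7.77 in resting Tregs. The lower proliferating array stood only just above the higher resting array. The log2 fold change of 0.41 ± 0.18 (SE), or 1.33-fold with a 95% interval of 1.00 to 1.77, did not pass the test (adjusted p = 0.0748), and turned to -0.29 under quantile normalization, -0.87 with housekeeping centring and -1.56 with Cd3 centring. The value depended on which proliferating array was used, since without proliferating replicate 1 the log2 fold change was 0.64 and passed (adjusted p = 0.00753), and without proliferating replicate 2 it was 0.19 and did not (adjusted p = 0.355). With all 4 arrays Ets1 passed with the replicate number as a block (0.0351), with a trended and robust prior (0.0238), with dim genes left out (0.0316) and with centring on the median (0.0188). Ets1 minus Elf1 within an array was -1.48 and -1.02 in proliferating Tregs and -0.78 and -0.70 in resting Tregs, and the change of -0.51 was close to the gap of 0.46 between the proliferating arrays. It shrank to -0.084 with overlapping groups after quantile normalization.

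Yy1 (17278614), a zinc-finger factor that can activate or repress its targets, was at 9.09 and 9.06 in proliferating Tregs and at 8.11 and 8.06 in resting Tregs. The arrays of each group nearly coincided. The log2 fold change was 0.99 ± 0.13 (SE), or 1.99-fold with a 95% interval of 1.62 to 2.44 (adjusted p = 0.000506), and was -0.038 after quantile normalization, -0.29 with housekeeping centring and -0.98 with Cd3 centring.

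Bcl11b (17283871), which recruits the NuRD and BAF chromatin complexes, was at 8.48 and 8.63 in proliferating Tregs and at 7.92 and 7.93 in resting Tregs. Both proliferating arrays were clearly above the resting ones. The log2 fold change was 0.63 ± 0.13 (SE), or 1.55-fold with a 95% interval of 1.25 to 1.91 (adjusted p = 0.00479), and turned to -0.27 under quantile normalization, -0.65 with housekeeping centring and -1.34 with Cd3 centring. Bcl11b did not pass the methods' t-test after Benjamini-Hochberg adjustment (adjusted p = 0.0592).

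**Figure D3:**
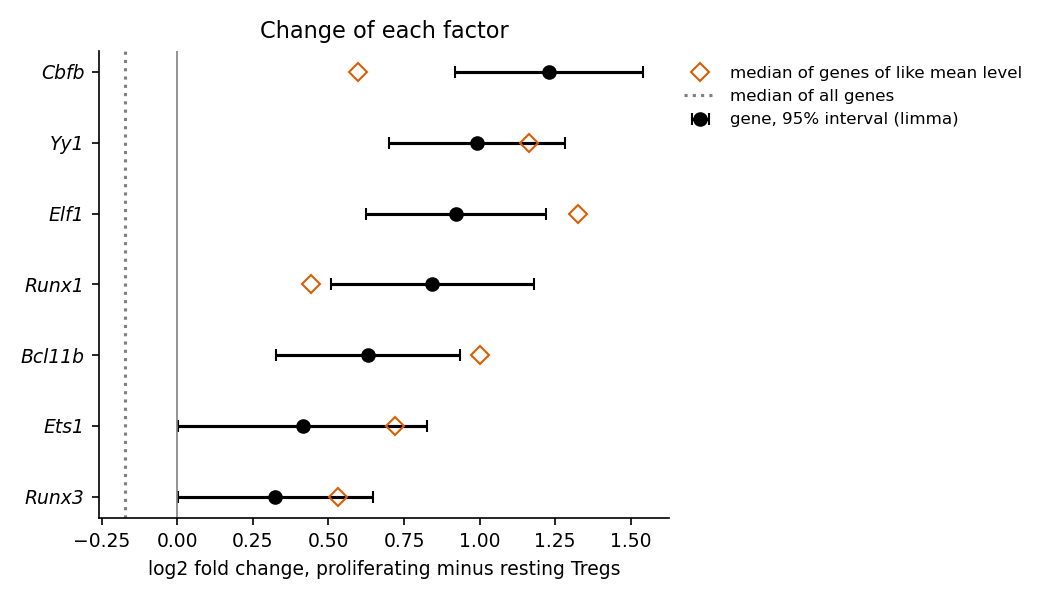
Log2 fold change (proliferating minus resting) of each member with its 95% interval from limma, beside the median log2 fold change of genes whose mean level lies within 0.5 of the member's. Cbfb and Runx1 stand above the median of genes of like level, and Yy1, Elf1, Bcl11b, Ets1 and Runx3 stand below it.

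The order of the fold changes on the deposited scale was Cbfb, Yy1, Elf1, Runx1, Bcl11b, Ets1 and Runx3, and neighbours in it had overlapping 95% intervals. The interval of Cbfb (0.92 to 1.54 in log2 units) lay wholly above those of Ets1 (0.0034 to 0.83) and Runx3 (0.00094 to 0.65), while differences between members were not tested. Genes of brighter mean level had larger fold changes, so each member is also set beside genes of like level. Among genes whose mean lay within 0.5 log2 units of Elf1, 82.5% of 685 were higher in proliferating Tregs, with a median log2 fold change of 1.32 beside the 0.92 of Elf1. For Yy1 these were 79.8% of 1033 genes and a median of 1.16 beside 0.99. For Bcl11b they were 75.2% of 1637 genes and a median of 1.00 beside 0.63. Ets1 and Runx3 were below their medians too (0.72 and 0.53), whereas Runx1, at 0.84, stood above a median of 0.44 and Cbfb, at 1.23, above one of 0.60. The 5 members other than Runx1 and Cbfb thus had smaller fold changes than the median gene of their level.

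The direction of 5 of the 7 members depended on quantile normalization, and that of all 7 on the genes used for centring. Over all probe sets the median was 6.0 and 5.97 in proliferating arrays, below the 6.27 of both resting arrays. Levels of named genes had an SD of 1.43 and 1.44 in proliferating arrays, above the 1.13 of both resting arrays. Of the genes called, 42.7% were higher in proliferating Tregs as deposited, 48.2% after quantile normalization, 64.3% with centring on the median, 5.72% with housekeeping centring and 1.54% with Cd3 centring. The median of all genes was -0.17 as deposited, -0.065 after quantile normalization, 0.059 with centring on the median, -1.45 with housekeeping centring and -2.14 with Cd3 centring. Members called higher were 5 as deposited, 2 after quantile normalization (Runx1 and Cbfb) and 7 with centring on the median, with 0 called lower in each. With housekeeping centring 0 were called higher and 5 lower, and with Cd3 centring 0 higher and 7 lower. The housekeeping genes had a median log2 fold change of 0.91 as deposited, below those of Cbfb (1.23), Yy1 (0.99) and Elf1 (0.92). Centring used the mean of the housekeeping genes, which Hprt (3.52) and Pgk1 (3.43) raised. Runx1 was 0.46 and Cbfb 0.75 after quantile normalization, the members that kept a positive value there. By limma's test Runx1 passed only just (adjusted p = 0.0494), and Cbfb had an adjusted p of 0.00542. After quantile normalization Ets1 (-0.29), Bcl11b (-0.27), Elf1 (-0.21) and Runx3 (-0.20) lay below the median of all genes under that scaling, and Yy1 (-0.038) lay just above it. None of these 5 negative values passed limma's test there (adjusted p from 0.132 for Bcl11b to 0.829 for Yy1).

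**Figure D4:**
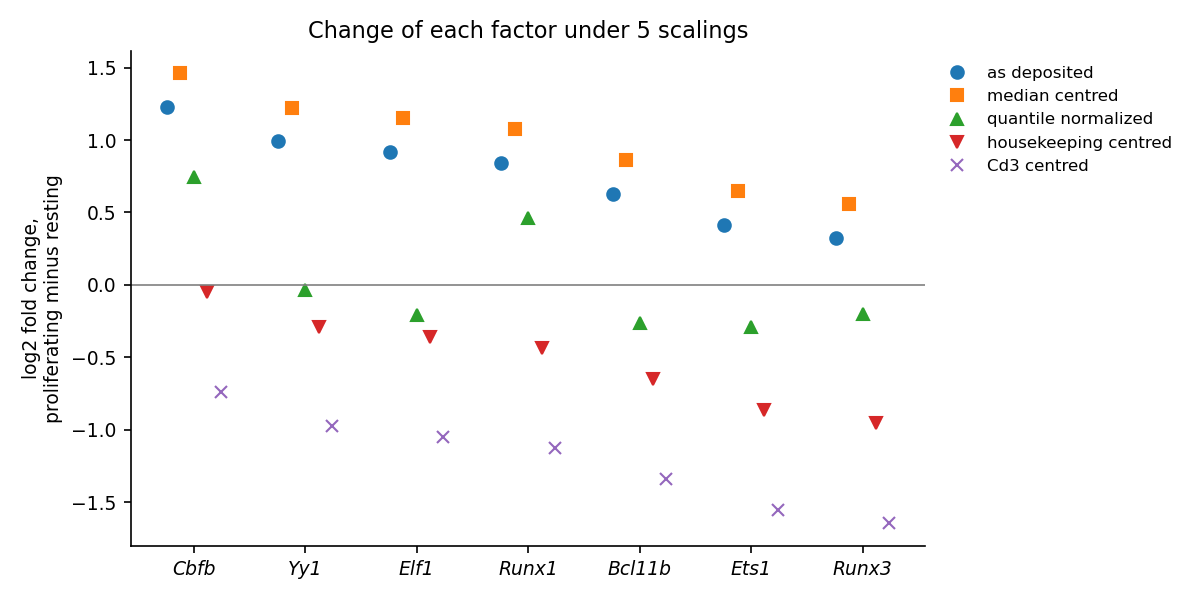
Log2 fold change (proliferating minus resting) of each member as deposited and under 4 other scalings of the arrays. Runx1 and Cbfb stay above 0 after quantile normalization, and all 7 members fall below 0 with centring on housekeeping genes or on Cd3d, Cd3e and Cd3g.

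Other known partners of Foxp3 were higher or did not pass the test on the deposited scale, and turned mostly lower with housekeeping centring. Of 8 further factors that the study named as partners, 4 were measured and all 4 were higher, beside 25.6% of all genes. The study chose them on these samples, so they are no independent evidence of direction. Their median log2 fold change was 0.98, whereas with Cd3 centring all 4 were lower. These were Bclaf1 (1.12), a nuclear regulator of transcription and splicing, Gata3 (1.03), which works with Foxp3 at shared sites, Max (0.93), the partner of Myc, and Nacc1 (0.66). The 4 other factors were not analysed here. Among 22 of 24 Foxp3 partners listed from general knowledge, 13 were higher (59.1%, beside 25.6% of all genes) and 0 lower on the deposited scale. The counts were 5 higher and 6 lower after quantile normalization and 3 higher and 17 lower with housekeeping centring. The largest fold changes of these partners as deposited were Ezh2 (3.02), the methyltransferase of Polycomb, Hif1a (2.52), the oxygen-sensitive factor, and Ikzf2 (2.06), known as Helios. Neither set of partners was set beside genes of its own level, and among genes of the level of Runx1 53.3% were higher.

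Cofactors of Runx were split. Of 17 measured of 19, 9 were higher (52.9%, beside 25.6% of all genes), 3 lower (17.6%, beside 34.5%) and 5 did not pass. Their median log2 fold change was 0.36. Cofactors were not set beside genes of their own level, and among genes of the level of Runx1 53.3% were higher. The split turned to 3 higher and 6 lower after quantile normalization, 1 higher and 16 lower with housekeeping centring and 0 higher and 16 lower with Cd3 centring. Prmt1 (1.74), which methylates Runx1, and the deacetylases Hdac3 (0.81) and Hdac1 (0.72) were the highest. Cbfa2t3 (-0.96), of the family fused to RUNX1 in human leukemia, and the Groucho corepressors Tle1 (-0.73) and Tle2 (-0.72), which bind the end of Runx proteins, were lower. Ep300, an acetyltransferase that Runx1 recruits, was at 7.71 and 7.73 in proliferating Tregs and at 7.64 and 7.70 in resting Tregs.

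Genes known to be bound or controlled by Runx or by Foxp3 with Runx had the highest median of the lists around the members. Foxp3, Il2ra, Ctla4 and Tnfrsf18 of this list are also 4 of the 5 Treg markers, whose median log2 fold change was 2.06, and Cd4 is also a T-cell marker. Of 18 measured, 13 were higher (72.2%, beside 25.6% of all genes), 4 lower (22.2%, beside 34.5%) and 1 did not pass. Their median log2 fold change was 1.34 beside -0.17 for all genes. The counts were 7 higher and 8 lower with housekeeping centring and 5 higher and 10 lower with Cd3 centring. This list too was not set beside genes of its own level. Il2 was at 8.76 and 8.99 in proliferating Tregs and at 5.00 and 5.04 in resting Tregs, a log2 fold change of 3.86. Csf2 (3.57), which encodes GM-CSF, and Il2ra (2.99), the high-affinity receptor chain for IL-2, followed. On the deposited scale Il2, which Foxp3 with Runx represses, and Il2ra, which the pair sustains, were thus both higher. Cd8a (-1.47), Cd8b1 (-0.99) and Mpo (-0.77), a gene of granulocytes that also stands in the neutrophil list, were lower, and so was Zbtb7b (-0.49), which directs T-cells to the CD4 fate and which Runx silences in CD8 T-cells. The summed CD8 and NK markers were 10.3 to 10.5 in proliferating and 10.4 to 10.5 in resting arrays in log2 units. Of the 8 CD8 and NK markers, 2 were higher, 3 lower and 3 did not pass.

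**Figure D5:**
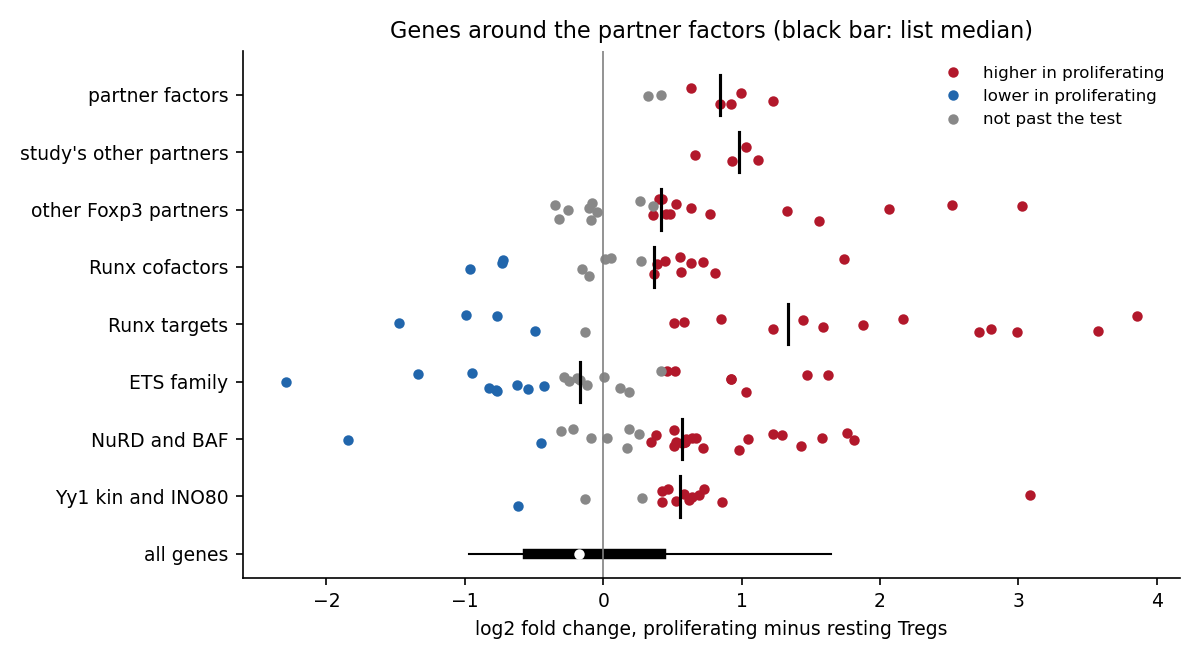
Log2 fold change (proliferating minus resting, deposited scale) of each measured gene in the lists around the members, with list medians. The Runx and Foxp3-Runx targets have a median of 1.34 and the ETS family one of -0.17, and with housekeeping centring these are 0.056 and -1.45.

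The ETS family around Elf1 and Ets1 had shares of calls near those of all genes. Of 23 measured family members other than these, 6 were higher (26.1%, beside 25.6% of all genes), 9 lower (39.1%, beside 34.5%) and 8 did not pass, with a median log2 fold change of -0.19 beside -0.17 for all genes, and over all 25 the counts with housekeeping centring were 0 higher and 22 lower. Higher were Etv6 (1.63), a repressor needed in blood stem cells, Elk3 (1.47) and Gabpa (1.03), the DNA-binding subunit of GABP. Lower were Spib (-2.30), a factor of B-cells and plasmacytoid dendritic cells, Spic (-1.34), of red pulp macrophages and B-cells, and Etv2 (-0.95), of endothelial progenitors. Spib was at 5.65 and 5.84 in proliferating Tregs and at 8.02 and 8.06 in resting Tregs, beside the B-cell markers, all 8 of which were lower. Fli1, an ETS factor of blood cells, was at 9.05 and 9.12 in proliferating Tregs and at 9.19 and 9.22 in resting Tregs.

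Subunits of the complexes that Bcl11b and Yy1 work with were mostly higher on the deposited scale, with exceptions. Genes of the members' mean levels were mostly higher there too, from 53.3% of those near Runx1 to 82.5% of those near Elf1. The subunits were not set beside genes of their own level. Of 29 measured of 31 NuRD and BAF genes, 20 were higher (69.0%, beside 25.6% of all genes), 2 lower (6.9%, beside 34.5%) and 7 did not pass. Their median was 0.57, and the counts were 5 higher and 7 lower after quantile normalization and 2 higher and 21 lower with housekeeping centring. Hdac2 (1.81) and the histone chaperones Rbbp7 (1.76) and Rbbp4 (1.58) were the highest. Bcl11a (-1.84), the paralog of Bcl11b found in B-cells and dendritic cells, and Bcl7a (-0.45) were lower, and Bcl11a fell together with the B-cell markers. Of 14 measured of 16 relatives of Yy1 and subunits of the INO80 remodeller, 11 were higher (78.6%, beside 25.6% of all genes), 1 lower and 2 did not pass. Their median was 0.55, and the counts were 6 higher and 2 lower after quantile normalization and 1 higher and 13 lower with housekeeping centring. Uchl5 (3.09), a deubiquitinase of INO80 and of the proteasome, rose most, followed by Tfpt (0.86) and Ino80b (0.73). Zfp42 (-0.61), the Yy1 relative known from embryonic stem cells, was the 1 that fell.

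Across the 4 arrays, the genes whose levels, each centred on its own mean, followed a member most closely were found by Euclidean distance among 19230 genes. Csf1r (0.013) and Orai1 (0.021) were nearest to Runx1, and Dnajc3 (0.026) and Rab8a (0.030) to Cbfb. Klf16 and Hgs were nearest to Runx3, Smarca4 and Agpat3 to Bcl11b, Aplp2 and Wnk1 to Yy1, Olfr1140 and Zfp960 to Ets1, and Gyg and Rel to Elf1. Csf1r, a receptor of myeloid cells, is itself in the list of Runx targets and in the myeloid markers, and Smarca4 is a subunit of BAF. With 4 arrays such nearness is common, since 185 genes lay within 0.2 of Ets1 and 823 within 0.2 of Bcl11b.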

How the data were processed

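RNA of 2 proliferating and 2 resting Treg samples was hybridised to 1 whole-transcript Affymetrix array each. According to the processing notes, the authors made the deposited log2 values with RMA in Partek 6.6. As a method RMA subtracts background, normalises probe signals and summarises each probe set. The medians and SDs of the deposited arrays differed between groups, so their distributions were not equal. Which normalization between arrays had been applied was not tested. The methods describe normalization on housekeeping genes in R and name another array design, and the table states neither scale nor centring, so log2 was read from the notes and the range of 1.97 to 14.0. The genome build of the annotation is not given in the sources used here. Of the probe sets, 23521 had 1 gene name, 1820 several and 16004 none; 23328 of the first matched RefSeq by gene identifier.

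The probe set of highest mean stood for a gene, with no filter on dim genes. Groups were compared over 22180 genes with limma 3.58.1 in R 4.3.3 (lmFit and eBayes, 5.48 prior and 2 residual degrees of freedom) with p-values adjusted by Benjamini-Hochberg and a threshold of 0.05. The fit was also run on simulated data with independent noise and changes in few genes, which checks the code and not the calls in these data. Precision is limited by the number of arrays. The text names every member, from each list up to 3 of the highest and 3 of the lowest genes past the test, exceptions and, for likeness, the 2 nearest genes by distance (predicted genes left out). Il2 and Spib are given by array, and Zbtb7b, Ep300 and Fli1 were chosen after values were seen. Members and lists were chosen with earlier results of these data known. Housekeeping centring used the mean of 11 genes, of which 10 were higher as deposited. Alternatives changed the prior, filter, probe sets, scaling, test, threshold, replicate block and arrays used.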

Additional observations from a re-analysis of the deposited data

How the results depend on the processing

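Of 112 alternative values of members, 82 kept their direction and their side of the threshold. A further 8 passed newly, 3 no longer passed and 19 changed sign. All 19 sign changes arose under quantile normalization, housekeeping centring or Cd3 centring. Centring shifts all genes of an array alike, so sign changes under a centring reflect 1 shift and not separate results per member. Cd3d (2.39), Cd3e (1.48) and Cd3g (2.05) each had a larger deposited log2 fold change than Cbfb (1.23), the largest of the members. Cd3 centring therefore had to turn all 7. Changing the prior, filter, probe sets, test or block left each member's fold change as it was, so its direction could not change there. Under quantile normalization the sign changed for Bcl11b (log2 fold change -0.27), Elf1 (-0.21), Ets1 (-0.29), Runx3 (-0.20) and Yy1 (-0.038), while 2 members were called higher and 0 lower. With housekeeping centring the values were Runx1 -0.44, Runx3 -0.96, Cbfb -0.050, Bcl11b -0.65, Yy1 -0.29, Ets1 -0.87 and Elf1 -0.36, with 0 members higher and 5 lower. With Cd3 centring they were Runx1 -1.13, Runx3 -1.65, Cbfb -0.74, Bcl11b -1.34, Yy1 -0.98, Ets1 -1.56 and Elf1 -1.05, with 0 higher and 7 lower. The constructions differ in the level set equal between arrays, and which is right was not tested. Of members, 3 were higher by the methods' t-test after adjustment, where Runx1 (adjusted p = 0.0792) and Bcl11b (0.0592) no longer passed, and 1 at a log2 fold change of at least 1. Bcl11b also missed the threshold in the methods' paired test (unadjusted p = 0.0685), which joins arrays by a number that no source states to be a pairing.

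Over all genes, higher and lower calls numbered 5688 and 7647, against 1160 and 19120 with housekeeping centring, 329 and 21009 with Cd3 centring, 2781 and 1531 by the adjusted t-test, 3000 and 2515 by the paired t-test and 2796 and 981 at a log2 fold change of at least 1. Lower calls numbered 4044 with centring on the median, 3485 with dim genes left out and 5072 by the unadjusted t-test. With an array left out they ranged between 3962 and 7537, the lowest being 3962 when resting replicate 1 was removed, with 4428 when resting replicate 2 was, and higher calls between 4379 and 5735, the lone array being assumed to vary like the other group. Members higher were 5 or 6. With the replicate number as a block 5765 genes were higher and 7929 lower, Ets1 passed (log2 fold change 0.41, adjusted p = 0.0351) and no other member's call changed. Deviations of arrays with the same number correlated at 0.018, so the numbers were not treated as pairs. Array signal over background was not examined.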
